A study of Homo sapiens with 6 samples.

Results

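Mitochondrial carriers and the translocases that bring proteins into mitochondria were examined as a group of 70 genes among 18404 tested. The members were all genes with a single symbol in the array annotation whose symbol begins with SLC25A, TIMM or TOMM followed by a digit, each represented by its brightest probe set. They comprised 49 SLC25 genes, 14 TIMM genes and 7 TOMM genes. Of these, 67 were protein-coding, and the other 3 were the antisense RNA SLC25A5-AS1 and the pseudogenes SLC25A51P1 and SLC25A51P4. TOMM5, TOMM6, TOMM7 and TIMM23B were carried only by probe sets with several symbols, which entered no test, and SLC25A6 was not analysed here.

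The arrays were of HaCaT, 1 line of human keratinocytes that became immortal in culture, and RNA was taken 72 hours after a hairpin RNA was brought in by lentivirus. In 3 samples (shTP63) it was directed against TP63, and 3 samples (shControl) received a control vector. TP63 encodes p63, a transcription factor of basal cells in layered epithelia, and the series was built around p63, the chromatin remodelling subunit ACTL6A and Hippo-YAP signalling in squamous carcinoma. Nothing in the labels says that replicates were separate cultures, so p-values cover only sample-to-sample spread, possibly technical, and the number of hairpins is not given in the sources used here. The level of TP63 was not analysed here, so each direction rests on the sample labels.

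The median log2 intensity of all probe sets was 7.56 ± 0.012 in shTP63 and 7.45 ± 0.016 in shControl (SD, n = 3 each). Of 6 measured keratinocyte markers 4 fell and 2 rose in shTP63. The keratins KRT5 and KRT14 were at 13.31 and 13.32 (mean log2 intensity) in shTP63 and at 13.82 and 13.68 in shControl, SFN and DSG3 fell by 0.60 and 0.31, and the adhesion genes ITGB4 and LAMB3 rose by 0.21 and 0.33. Their summed level ranged from 15.28 to 15.32 in shTP63 and from 15.54 to 15.60 in shControl on the log2 scale. The summed leukocyte markers ranged from 10.24 to 10.36 in shTP63 and from 9.60 to 9.72 in shControl, with 4 of 6, PTPRC among them, under 6.81, the level that 95% of olfactory receptor genes stay below, which served as the background. CD14 and CD68, both above it, rose by 0.70 (SE 0.064) and 0.75 (SE 0.056). The summed fibroblast markers ranged from 10.28 to 10.37 in shTP63 and from 10.19 to 10.25 in shControl with 3 of 8 under that level, and the endothelial ones from 9.84 to 9.90 in shTP63 and from 9.78 to 9.86 in shControl with 3 of 4 under it. The part of these markers in the results was not tested.

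Most mitochondrial proteins are encoded in the nucleus and made in the cytosol. The TOM complex of the outer membrane recognises them through receptors and passes them through the TOMM40 channel; from there TIM23 takes proteins with a presequence into the matrix or inner membrane, and the small TIMM chaperones escort hydrophobic proteins to TIM22. The metabolite carriers of the SLC25 family are themselves delivered by that second route, and they exchange nucleotides, phosphate, carboxylates, amino acids and cofactors across the inner membrane.

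The 5 promoter windows shown here belong to the outer membrane receptors TOMM20, TOMM22 and TOMM70 and the chaperone TIMM10, all lower in shTP63, and to TIMM21, which was higher. They are the RefSeq windows from 250 bases before to 50 bases after the gene start (GRCh38.p14, 5′ to 3′ on the strand of the gene), at chr1:235128788-235129087 (minus strand), chr22:38681707-38682006 (plus strand), chr3:100401040-100401339 (minus strand), chr11:57530705-57531004 (minus strand) and chr18:74148273-74148572 (plus strand). Capitals mark matches, on either strand, to the NRF1 motif (nuclear respiratory factor 1, seen in TOMM20 as GCGCAGGCGC, with any base allowed after the A), CCGGAAG (ETS factors such as GABPA) or CACGTG (the E-box).
TOMM20: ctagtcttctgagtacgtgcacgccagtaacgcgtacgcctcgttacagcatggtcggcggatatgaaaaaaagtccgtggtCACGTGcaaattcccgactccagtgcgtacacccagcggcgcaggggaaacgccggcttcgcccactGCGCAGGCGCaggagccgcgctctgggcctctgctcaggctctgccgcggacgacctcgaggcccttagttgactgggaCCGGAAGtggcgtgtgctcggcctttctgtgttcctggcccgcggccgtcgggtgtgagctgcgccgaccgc
TOMM22: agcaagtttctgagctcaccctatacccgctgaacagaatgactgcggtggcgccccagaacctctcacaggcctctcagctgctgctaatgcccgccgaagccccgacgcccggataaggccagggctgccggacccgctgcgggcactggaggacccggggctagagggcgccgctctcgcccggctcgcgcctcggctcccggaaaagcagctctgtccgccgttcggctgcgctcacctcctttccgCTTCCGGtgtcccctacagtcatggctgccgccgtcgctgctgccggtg
TOMM70: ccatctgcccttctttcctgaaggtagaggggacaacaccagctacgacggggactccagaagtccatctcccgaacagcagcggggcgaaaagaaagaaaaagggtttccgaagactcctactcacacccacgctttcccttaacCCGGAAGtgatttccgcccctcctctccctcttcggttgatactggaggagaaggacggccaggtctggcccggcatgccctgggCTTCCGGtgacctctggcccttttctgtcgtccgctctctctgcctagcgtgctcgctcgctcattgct
TIMM10: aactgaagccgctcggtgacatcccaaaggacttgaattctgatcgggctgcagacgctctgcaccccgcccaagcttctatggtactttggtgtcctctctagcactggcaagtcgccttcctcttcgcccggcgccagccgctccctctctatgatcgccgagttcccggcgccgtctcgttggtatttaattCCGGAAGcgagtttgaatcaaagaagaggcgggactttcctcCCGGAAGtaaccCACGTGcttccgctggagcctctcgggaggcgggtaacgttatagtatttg
TIMM21: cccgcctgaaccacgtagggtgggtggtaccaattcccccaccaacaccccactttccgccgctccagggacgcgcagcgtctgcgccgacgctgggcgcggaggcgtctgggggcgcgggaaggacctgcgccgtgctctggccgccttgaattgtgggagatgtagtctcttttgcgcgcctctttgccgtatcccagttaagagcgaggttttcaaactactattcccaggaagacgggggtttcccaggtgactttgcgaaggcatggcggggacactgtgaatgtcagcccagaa
The TOMM20 window held 1 match to each of the 3 motifs, TOMM22 held 1 ETS match, TOMM70 held 2 ETS matches, TIMM10 held 2 ETS matches and 1 E-box, and TIMM21 held none. No matches overlapped in these windows. A promoter window was found for 60 of the 70 members, and the 5 shown do not stand for all of them. At least 1 of the 3 motifs was in 18 of 31 windows of members that fell and in 10 of 27 of those that did not pass. It was in 0 of 2 of those that rose, and in 39.0% of the promoters of genes among the brightest 40%. The windows of SLC25A23, SLC25A1, TIMM9 and TIMM22, which all fell, held no match. The ETS letters were in 18 of the 60 windows, against 10.3% of all 35116 promoters in the table. They were in 14.6% of the 14230 promoters of genes tested and in 21.5% of the 6122 promoters of genes among the brightest 40%. Among members that fell in shTP63 they were in 12 of 31 windows, among members that did not pass in 6 of 27, and among members that rose in 0 of 2. The E-box letters were in 10 of the 60 windows, 7.3% of all promoters and 10.7% of those of the brightest 40%. By call, they were in 8 of 31 windows of members that fell, 2 of 27 that did not pass and 0 of 2 that rose. The NRF1 letters were in 9 of the 60, 5.8% of all promoters and 13.4% of those of the brightest 40%. By call, they were in 5 of 31, 4 of 27 and 0 of 2 in the same order. These are descriptions of letters, with no test.

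Across the 70 genes, 5 rose and 32 fell in shTP63 in limma's moderated test (adjusted p under 0.05), and 33 did not pass. Of all genes tested 41.5% passed, 16.4% as rises and 25.1% as falls. The median difference of the members, shTP63 minus shControl on the log2 scale, was -0.11, against -0.01 over all genes. No member changed by 2-fold or more, and the differences ran from -0.79 for SLC25A23 to 0.45 for SLC25A27. In 43 members the groups did not overlap, 9 with shTP63 higher and 34 with it lower. That held for 51.4% of all genes, 20.9% with shTP63 higher and 30.4% with it lower. RNA was measured per sample, so less RNA per cell and fewer cells of a type cannot be told apart.

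**Figure D1:**
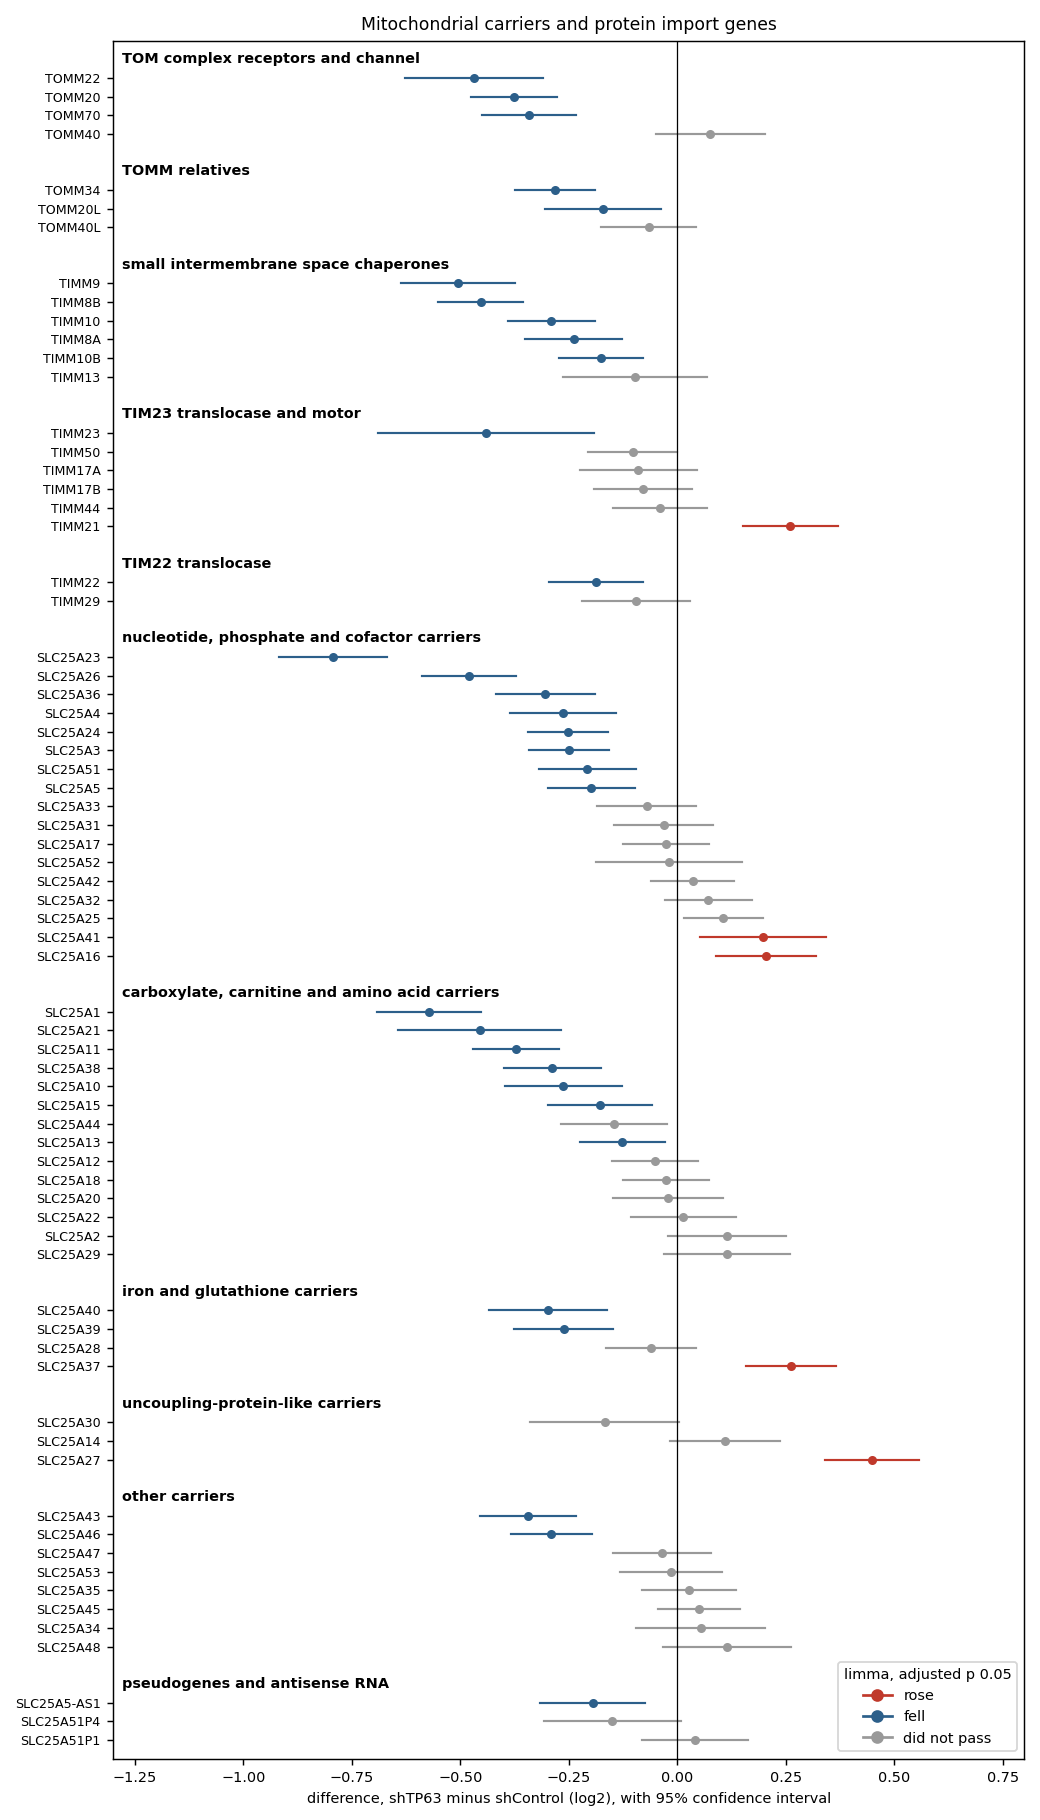
Difference between shTP63 and shControl (log2) for each of the 70 genes, grouped by role, as points with 95% confidence intervals from limma. Of the 70, 32 fell (blue), 5 rose (red) and 33 did not pass (grey).

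The split between rises and falls was set beside the level of the genes, with all genes divided by mean level into 5 classes of equal size. Among the 3681 genes of the brightest class 25.3% rose and 44.0% fell, and their median was -0.10. Of the 17 members there, 0 rose and 15 fell, with a median of -0.26, and in limma's unadjusted test at 0.05 the counts were 0 and 16. In the next class 2 of 20 members rose and 9 fell, against 18.5% and 43.0% of all genes, and the members' median of -0.12 was close to the -0.10 of all genes. In the 3 dimmer classes 3 of 33 members rose and 8 fell, against 12.7% and 12.8% of all genes. Across the 70 genes, which are not independent, level and difference had a Pearson r of -0.341 and a Spearman rho of -0.416, and over all 18404 genes -0.104 and -0.172. All these values share the same 6 arrays.

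**Figure D2:**
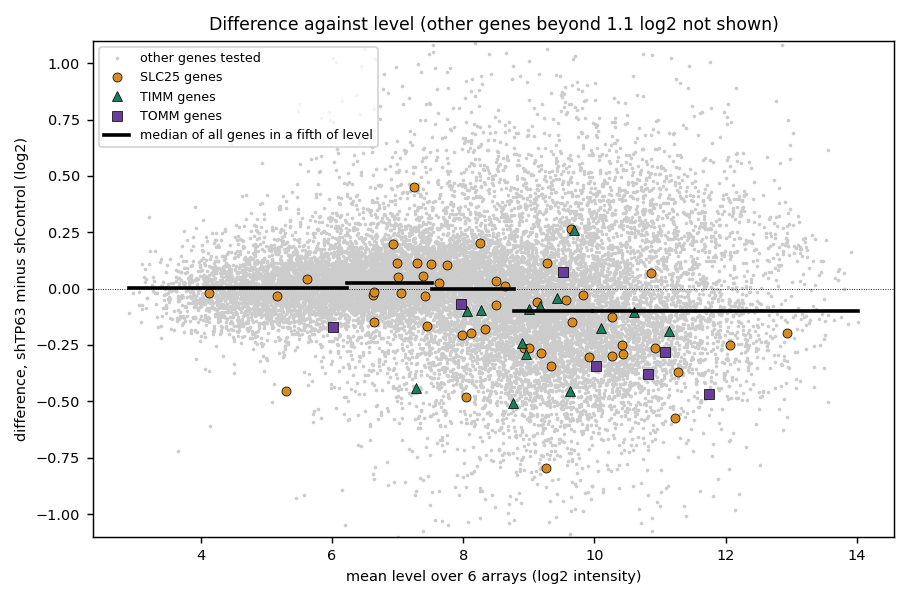
Difference between shTP63 and shControl (log2) against mean level over the 6 arrays (log2 intensity), with SLC25, TIMM and TOMM genes marked over all other genes in grey and the median of all genes in each of 5 level classes as a black line. In the brightest class 16 of the 17 members lie below the line, which sits at -0.10.

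The receptors of the TOM complex were lower in shTP63, while the channel gene did not pass on the deposited scale. TOMM20, the receptor for presequences, was at 10.65, 10.61 and 10.60 (log2 intensity) in the shTP63 arrays and at 10.95, 11.04 and 11.01 in the shControl arrays. The groups did not overlap, and TOMM20 fell by 0.38 in log2 units (SE 0.044, limma adjusted p = 0.000152), or 1.30-fold. TOMM22, the central receptor that links the others to the channel, was at 11.67, 11.43 and 11.44 in shTP63 and at 12.01, 12.02 and 11.91 in shControl. It fell by 0.47 (SE 0.070, limma adjusted p = 0.00064), with shTP63 replicate 1 nearest to the controls. A second, dimmer TOMM22 probe set had means of 9.20 in shTP63 and 9.78 in shControl, and fell by 0.58 (SE 0.049). Its number lies among those of members on chromosome 22, where TOMM22 lies. The number of the brighter probe set lies among those of members on chromosome 10. The array values above may therefore be those of a copy, and its position was not checked. RefSeq lists 6 TOMM22 pseudogenes and 4 each of TOMM20 and TOMM40, so part of a probe set's signal could come from copies, which was not tested.

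TOMM70, the receptor that takes chaperone-bound carrier precursors, was at 9.92, 9.82 and 9.83 in shTP63 and at 10.15, 10.23 and 10.20 in shControl. All shTP63 arrays were below all shControl arrays, and it fell by 0.34 (SE 0.047, limma adjusted p = 0.000411). TOMM40, the channel, was at 9.53, 9.48 and 9.66 in shTP63 and at 9.47, 9.44 and 9.52 in shControl. These ranges overlapped, and the difference of 0.08 (95% interval -0.05 to 0.20, limma adjusted p = 0.318) did not pass. It passed as a rise after quantile normalization over probe sets with 1 gene (0.16, adjusted p = 0.036) and after cyclic loess (0.18, adjusted p = 0.025). Among the relatives, TOMM34, a cytosolic co-chaperone despite its name, fell by 0.28 (SE 0.041, limma adjusted p = 0.000517), and TOMM40L, a TOMM40 paralogue, differed by -0.07 without passing. TOMM20L fell by 0.17 with both groups under the background level, a call lost with 5 of the 6 arrays left out in turn, so its size is uncertain.

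Of the 6 small TIMM chaperones of the intermembrane space, 5 fell in shTP63 and 0 rose, with the same counts in limma's unadjusted test at 0.05. Over all genes 25.1% fell and 16.4% rose. In the brightest and next level classes, which held 1 and 3 of the 6, 44.0% and 43.0% of all genes fell. TIMM9, which pairs with TIMM10 in a ring-shaped hexamer, was at 8.62, 8.44 and 8.43 in shTP63 and at 8.97, 9.03 and 9.02 in shControl. It fell by 0.51 (SE 0.058, limma adjusted p = 0.000145). TIMM10 was at 8.80, 8.76 and 8.85 in shTP63 and at 9.11, 9.07 and 9.11 in shControl, and fell by 0.29 (SE 0.044, limma adjusted p = 0.000701). In both partners the groups were fully separated.

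TIMM8B, a relative of the TIMM8A chaperone, was at 9.40, 9.39 and 9.42 in shTP63 and at 9.88, 9.81 and 9.89 in shControl. It fell by 0.45 (SE 0.043, limma adjusted p = 5.5e-05), and its other probe set by 0.66. The number of the other probe set lies among those of members on chromosome 11, where TIMM8B lies. That of the first lies beyond those of chromosome X members. RefSeq lists 2 TIMM8B pseudogenes, and whether the first reports a copy was not checked. TIMM8A, the gene of the Mohr-Tranebjaerg deafness-dystonia syndrome and the partner of TIMM13, was at 8.801, 8.839 and 8.693 in shTP63 and at 9.001, 9.022 and 9.026 in shControl, and fell by 0.24 (SE 0.049, limma adjusted p = 0.00388). TIMM13 itself was at 8.10, 7.93 and 7.97 in shTP63 and at 8.01, 8.05 and 8.25 in shControl. Its groups overlapped, and its difference of -0.10 (95% interval -0.26 to 0.07) did not pass, though it did after centring on the array median of all probe sets (-0.21, adjusted p = 0.0448). TIMM10B, which docks the chaperones on TIM22, was at 10.03, 9.96 and 10.03 in shTP63 and at 10.19, 10.20 and 10.16 in shControl. It fell by 0.18 (SE 0.043, limma adjusted p = 0.00949), but after cyclic loess the difference was -0.07 (adjusted p = 0.211) and the call was lost, as it was after quantile normalization over probe sets with 1 gene (-0.10, adjusted p = 0.0877).

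TIMM22, the channel that inserts the metabolite carriers, was at 11.00, 11.00 and 11.11 in shTP63 and at 11.27, 11.20 and 11.20 in shControl. It fell by 0.19 (SE 0.048, limma adjusted p = 0.012), a call lost after cyclic loess (-0.10, adjusted p = 0.145) and after quantile normalization over probe sets with 1 gene (-0.14, adjusted p = 0.0505). Its partner TIMM29 differed by -0.09 (95% interval -0.22 to 0.03) and did not pass.

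**Figure D3:**
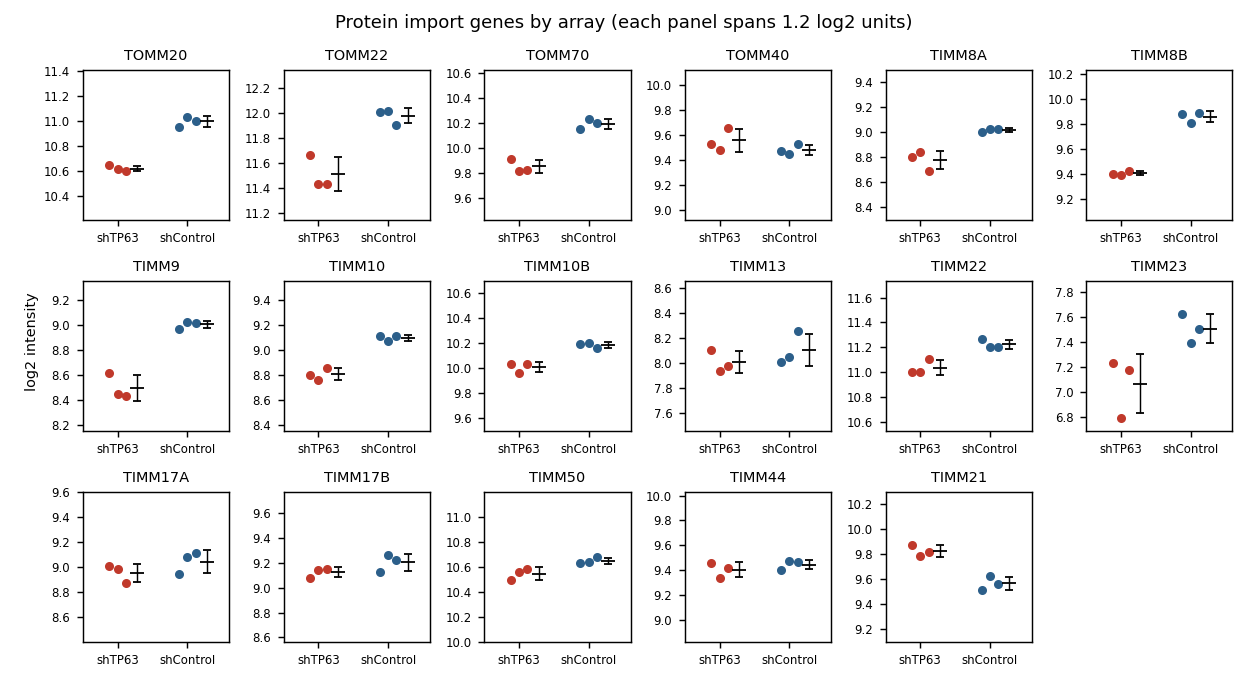
Log2 intensity of 17 protein import genes in each shTP63 array (red, left) and each shControl array (blue, right), with the mean and SD of 3 arrays in black; each panel spans the same range. The groups are separated for TOMM20, TOMM22, TOMM70 and 5 of the 6 small chaperones, and overlap for TOMM40 and TIMM13.

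In the TIM23 translocase and its motor, 1 of 6 genes rose, 1 fell and 4 did not pass. Over all genes 16.4% rose and 25.1% fell. In the brightest and next level classes, which held 1 and 4 of the 6, 44.0% and 43.0% of all genes fell. TIMM21, a subunit that connects the translocase to TOM and to respiratory chain assembly, was at 9.88, 9.79 and 9.81 in shTP63 and at 9.51, 9.62 and 9.56 in shControl. It rose by 0.26 (SE 0.048, limma adjusted p = 0.0021), with no overlap. TIMM23, the channel subunit, was at 7.23, 6.79 and 7.17 in shTP63 and at 7.63, 7.39 and 7.50 in shControl. It fell by 0.44 (SE 0.110, limma adjusted p = 0.0104), with the widest standard error of the 70 genes. TIMM23 and TIMM23B are near-identical copies, so a value for TIMM23 alone is uncertain.

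The remaining TIM23 genes showed small differences. TIMM50, the receptor of the translocase, was at 10.49, 10.56 and 10.59 in shTP63 and at 10.63, 10.64 and 10.68 in shControl, separated by a small margin, and its difference of -0.10 did not pass (limma adjusted p = 0.0997). TIMM17A was at 9.01, 8.99 and 8.87 in shTP63 and at 8.95, 9.08 and 9.11 in shControl. Its paralogue TIMM17B, the other alternative partner of TIMM23, was at 9.08, 9.14 and 9.15 in shTP63 and at 9.13, 9.26 and 9.22 in shControl. TIMM44, which tethers the import motor, was at 9.46, 9.34 and 9.42 in shTP63 and at 9.40, 9.47 and 9.47 in shControl. In these 3 genes the groups overlapped, and the 95% intervals of the differences were -0.22 to 0.04, -0.19 to 0.03 and -0.15 to 0.07 in the same order. After centring on the array median of all probe sets, the median of all genes was -0.12. There TIMM50 (-0.21), TIMM17A (-0.20), TIMM17B (-0.19) and TIMM44 (-0.15) passed as falls. TIMM50 also passed at -0.10 with the dimmest 40% of genes left out (limma adjusted p = 0.0453). It did so too with a trended robust prior in limma (adjusted p = 0.0399).

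Among 17 measured carriers of nucleotides, phosphate and cofactors, 2 rose and 8 fell in shTP63, against 16.4% and 25.1% of all genes. In the brightest and next level classes, which each held 4 of the 17, 44.0% and 43.0% of all genes fell. SLC25A23, a calcium-regulated carrier of ATP-magnesium and phosphate, was at 8.84, 8.79 and 8.97 in shTP63 and at 9.68, 9.63 and 9.68 in shControl. It fell by 0.79 (SE 0.055, limma adjusted p = 1.1e-05), or 1.73-fold, the largest difference among the 70 genes. SLC25A24, a carrier of the same kind, fell by 0.25, while SLC25A25, another of them, differed by 0.11 and did not pass (limma adjusted p = 0.064). SLC25A26, the carrier of the methyl donor S-adenosylmethionine, was at 7.77, 7.83 and 7.80 in shTP63 and at 8.21, 8.29 and 8.34 in shControl, and fell by 0.48 (SE 0.048, limma adjusted p = 6.9e-05). The SLC25A23 and SLC25A26 groups were far apart relative to their spread.

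The carriers that supply ATP synthase and export its product fell by smaller amounts. SLC25A3, the phosphate carrier, was at 11.96, 11.92 and 11.96 in shTP63 and at 12.19, 12.20 and 12.21 in shControl, and fell by 0.25 (SE 0.040, limma adjusted p = 0.000985). SLC25A5, the ADP/ATP carrier of proliferating cells, was at 12.88, 12.80 and 12.83 in shTP63 and at 13.00, 13.02 and 13.07 in shControl, and fell by 0.20 (SE 0.044, limma adjusted p = 0.00609). SLC25A4, the ADP/ATP carrier best known from heart and muscle, was at 8.96, 8.80 and 8.83 in shTP63 and at 9.11, 9.11 and 9.17 in shControl, and fell by 0.26 (SE 0.053, limma adjusted p = 0.00355). All shTP63 values lay below all shControl values in the 3 genes, and their calls were kept in all 16 alternatives. SLC25A31, the testis ADP/ATP carrier, lay under the background level and differed by -0.03. RefSeq lists 9 SLC25A5 pseudogenes, so its value may include copies, and SLC25A5-AS1, its antisense neighbour, fell by 0.20, a call lost without shTP63 replicate 2 or without shControl replicate 1.

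SLC25A36, a pyrimidine nucleotide carrier, fell by 0.30 (SE 0.050, limma adjusted p = 0.00109), and its relative SLC25A33 differed by -0.07 and did not pass. The other SLC25A33 probe set, dimmer at 7.21 in shTP63 and 7.47 in shControl, fell by 0.26 (limma adjusted p = 0.00346). With both averaged the gene passed as a fall (-0.17, limma adjusted p = 0.0107). The dimmer probe set's number lies among those of chromosome 11 members, while SLC25A33 is on chromosome 1. It may report another locus, which was not checked. SLC25A51, the mitochondrial NAD carrier, fell by 0.21 (SE 0.049). Its other probe set was under the background level in both groups, at 5.99 in shTP63 and 5.92 in shControl. The average of both (-0.07, limma adjusted p = 0.467) did not pass and mixes in a value not above background. SLC25A51 is on chromosome 9, and the dimmer probe set's number lies between those of chromosome 9 and X members. The brighter probe set's number lies beyond those of chromosome X members. RefSeq lists 4 SLC25A51 pseudogenes, so the fall may be that of a copy, which was not checked. SLC25A16 was at 8.40, 8.34 and 8.33 in shTP63 and at 8.08, 8.16 and 8.22 in shControl, and rose by 0.20 (SE 0.051, limma adjusted p = 0.0105). SLC25A41, another ATP-magnesium and phosphate carrier, was at 6.95, 7.17 and 6.96 in shTP63 and at 6.86, 6.80 and 6.83 in shControl, and rose by 0.20 (SE 0.064, limma adjusted p = 0.0348). Both calls were lost after centring on the array median of all probe sets (0.10 and 0.09) and after quantile normalization over all probe sets (0.13 and 0.08), and kept where these steps used only probe sets with 1 gene. That of SLC25A41 was also lost under the replicate block (adjusted p = 0.0586), without shTP63 replicate 2 (0.12, adjusted p = 0.0826) or without any 1 of the shControl arrays (0.18 to 0.21). The SLC25A41 mean of 6.83 in shControl lay close to the background level of 6.81, so the size of that rise is uncertain.

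Of 14 carriers of carboxylates, carnitine and amino acids, 7 fell and 0 rose (8 and 0 in limma's unadjusted test at 0.05). Over all genes 25.1% fell and 16.4% rose. In the brightest and next level classes, which held 3 and 5 of the 14, 44.0% and 43.0% of all genes fell. SLC25A1, the citrate carrier that feeds cytosolic acetyl-CoA to lipid synthesis, was at 10.96, 10.88 and 11.02 in shTP63 and at 11.50, 11.49 and 11.59 in shControl. It fell by 0.57 (SE 0.053, limma adjusted p = 4.4e-05), or 1.49-fold. SLC25A11, the oxoglutarate-malate carrier, was at 11.13, 11.05 and 11.08 in shTP63 and at 11.43, 11.46 and 11.48 in shControl, and fell by 0.37 (SE 0.044, limma adjusted p = 0.000168). In both genes the groups were separated by several times their spread. SLC25A21, a carrier of longer oxodicarboxylates, was at 4.92, 5.11 and 5.17 in shTP63 and at 5.39, 5.66 and 5.53 in shControl. It fell by 0.46 (SE 0.082, limma adjusted p = 0.00186) with both groups under the background level of 6.81, so how far it fell is uncertain.

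The dicarboxylate carrier SLC25A10 fell by 0.26 (SE 0.059) and SLC25A38, a glycine carrier needed for haem synthesis, by 0.29 (SE 0.049). The 2 aspartate-glutamate carriers of the malate-aspartate shuttle differed little: SLC25A12 differed by -0.05 (95% interval -0.15 to 0.05) and SLC25A13 fell by 0.13 (limma adjusted p = 0.0428), a call lost in 9 of 16 alternatives. SLC25A13 lost it at -0.03 after cyclic loess and with any 1 of 5 arrays left out, shControl replicate 1 being the exception. SLC25A15, the ornithine carrier of the urea cycle, fell by 0.18 and lost its call without shTP63 replicate 1 (-0.13, adjusted p = 0.0636) or without any 1 of the shControl arrays. SLC25A20, the carnitine-acylcarnitine carrier of fatty acid oxidation, differed by -0.02 (95% interval -0.15 to 0.10) and did not pass. SLC25A44, a branched-chain amino acid carrier, differed by -0.15 and had the smallest adjusted p of the members that did not pass (limma adjusted p = 0.058).

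Of the 4 iron and glutathione carriers 1 rose and 2 fell, against 16.4% and 25.1% of all genes. In the brightest and next level classes, which each held 2 of the 4, 44.0% and 43.0% of all genes fell. SLC25A37, mitoferrin-1, which brings iron to haem and iron-sulfur cluster synthesis, was at 9.72, 9.79 and 9.80 in shTP63 and at 9.50, 9.48 and 9.56 in shControl. It rose by 0.26 (SE 0.046, limma adjusted p = 0.00152), but its other probe set differed by 0.01 (adjusted p = 0.888), so the rise rests on 1 of its probe sets. SLC25A28, mitoferrin-2, differed by -0.06 and did not pass. The mitochondrial glutathione carrier genes SLC25A39 and SLC25A40 fell by 0.26 (SE 0.050) and 0.30 (SE 0.060), with no overlap between groups in either.

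SLC25A27, also called UCP4 and best known from brain, had the largest rise of the 70 genes. It was at 7.45, 7.46 and 7.50 in shTP63 and at 6.95, 7.08 and 7.03 in shControl, above the background level of 6.81. It rose by 0.45 (SE 0.048, limma adjusted p = 9.8e-05), or 1.37-fold. The other carriers related to the uncoupling proteins, SLC25A14 (0.11) and SLC25A30 (-0.17), did not pass. SLC25A46, an outer membrane protein of mitochondrial fusion and fission, fell by 0.29 (SE 0.041, limma adjusted p = 0.000488), and SLC25A43 fell by 0.34 (SE 0.048, limma adjusted p = 0.000436). The 33 members that did not pass ran from -0.17 to 0.11, 20 lower and 13 higher, with 6 of them under the background level.

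**Figure D4:**
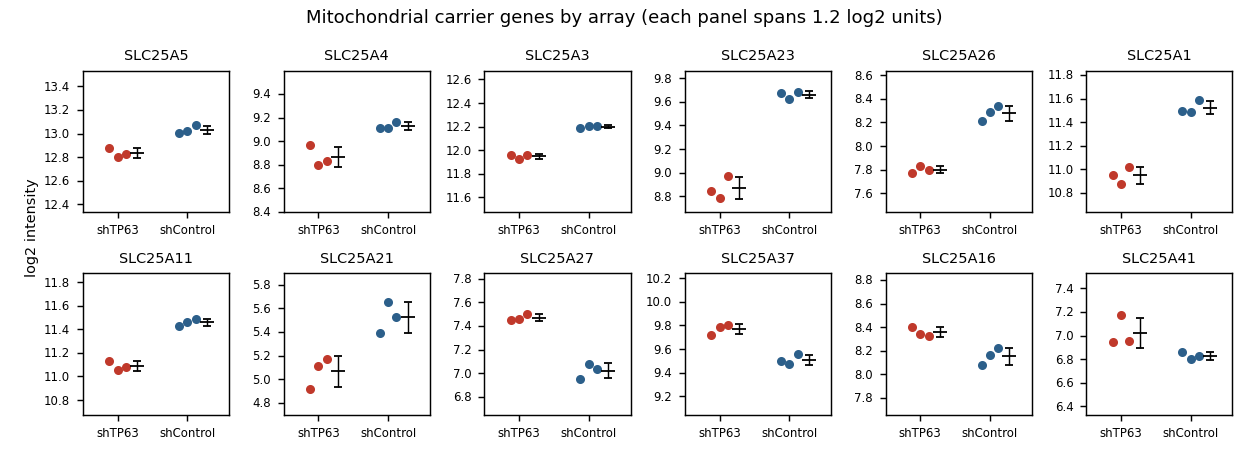
Log2 intensity of 12 carrier genes in each shTP63 array (red, left) and each shControl array (blue, right), with the mean and SD of 3 arrays in black; each panel spans the same range. SLC25A23 and SLC25A1 show the widest gaps below shControl and SLC25A27 the widest above it.

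The pattern was compared with 58 measured genes, of 61 listed, that serve the same routes or work beside them under other names. Among them were processing peptidases, motor subunits, porins, the pyruvate carrier, the calcium uniporter, mitochondrial proteases and the MICOS complex of the inner membrane. Of the 58, 3 passed as rises and 32 as falls, against 16.4% and 25.1% of all genes, and their median difference was -0.15. In the brightest and next level classes, which held 25 and 20 of the 58, 44.0% and 43.0% of all genes fell. Relative to the median of all genes in the same level class, the median difference of the 58 was -0.08. Falls made up 91.4% of their calls, 75% after cyclic loess (7 rose, 21 fell) and 79.3% after quantile normalization over probe sets with 1 gene (6 rose, 23 fell). Among calls over all genes falls made up 60.5%, 49.7% after cyclic loess and 52.8% after that quantile normalization. The largest of their falls was that of UCP2, an uncoupling protein of the same carrier fold, at 8.21, 8.35 and 8.31 in shTP63 and 9.43, 9.45 and 9.40 in shControl. UCP2 fell by 1.14 (SE 0.049, limma adjusted p = 9.63e-07). Both subunits of the mitochondrial pyruvate carrier fell, MPC1 by 0.85 (SE 0.079) and MPC2 by 0.60 (SE 0.053).

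Of 35 genes listed with the import machinery 1 rose and 19 fell, against 16.4% and 25.1% of all genes. The list also held proteases (AFG3L2, SPG7, YME1L1, CLPP and LONP1) and MICOS genes (such as IMMT and APOOL), which are not translocases. Several of the 19 falls, such as APOOL and AFG3L2, and the 1 rise, SPG7, were among these. DNAJC19, a motor co-chaperone, fell by 0.55 (SE 0.054), and CHCHD4 and GFER, the disulfide relay that folds the small TIMM proteins, fell by 0.48 (SE 0.079) and 0.38 (SE 0.063). The CHCHD4 mean of 6.73 in shTP63 lay under the background level, so the size of that difference is uncertain. The matrix chaperone HSPA9, the core of the import motor, differed by -0.12 and did not pass (limma adjusted p = 0.0518). SPG7, a subunit of an inner membrane protease, rose by 0.40 (SE 0.046), while its partner AFG3L2 fell by 0.32 (SE 0.046). Of 23 transport genes 2 rose and 13 fell, against 16.4% and 25.1% of all genes. The sideroflexin family was mixed: SFXN4 rose by 0.23 (SE 0.045) and SFXN5 by 0.20 (SE 0.059), SFXN2 fell by 0.44 (SE 0.051), and SFXN1 (0.12) and SFXN3 (0.05) did not pass. The calcium uniporter pore MCU and its regulator SMDT1 fell by 0.37 (SE 0.046) and 0.53 (SE 0.044).

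Of 8 regulators of mitochondrial genes 5 fell and 0 rose, with the same counts in limma's unadjusted test at 0.05. Over all genes 25.1% fell and 16.4% rose. In the brightest and next level classes, which held 2 and 3 of the 8, 44.0% and 43.0% of all genes fell. GABPA, the ETS factor whose letters are marked in the windows above, was at 8.81, 8.79 and 8.63 in shTP63 and at 9.20, 9.25 and 9.16 in shControl, and fell by 0.46 (SE 0.058, limma adjusted p = 0.000228). TFAM, which packages mitochondrial DNA, fell by 0.33 (SE 0.046), ESRRA, a nuclear receptor that acts with the PGC-1 coactivators, by 0.30 (SE 0.056), and MYC, an E-box factor, by 0.25 (SE 0.041). PPARGC1A, the coactivator PGC-1 alpha, fell by 0.58 (SE 0.058), and its shTP63 mean lay below background, so that size is uncertain. NRF1 differed by -0.03, PPARGC1B by 0.01 and PPRC1 by 0.01, and none of these passed. Whether these differences bear on the members was not tested.

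**Figure D5:**
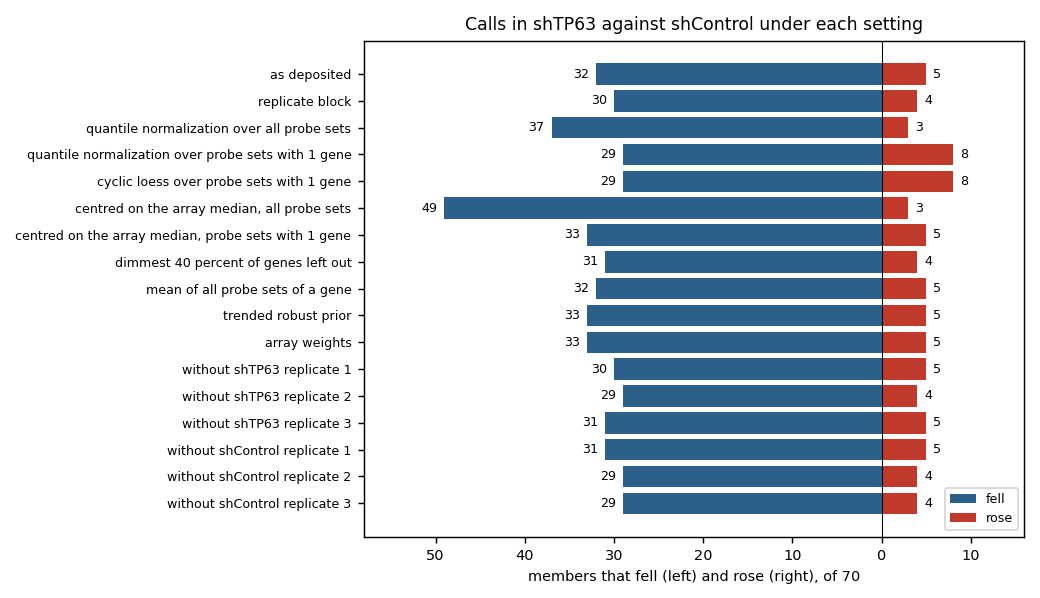
Number of the 70 genes that fell (blue, left) and rose (red, right) in shTP63 under the deposited scale and each of 16 alternatives. Falls range from 29 to 49 and rises from 3 to 8.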

How the data were processed

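Values were from 6 one-colour arrays, 3 shTP63 and 3 shControl, grouped by sample title. The deposited values were linear intensities that the authors made with RMA (background correction, normalization between arrays, probe set summary) in R 2.15.1, per the submitters' processing notes. Here log2 was taken. Arrays give no counts, so precision depends on how many there are: a difference had a median standard error of 0.053. Of 32321 probe sets, 19158 had 1 gene in the platform annotation, and the brightest per gene gave 18404 genes. All 70 members matched RefSeq (GRCh38.p14) by Entrez identifier. limma 3.58.1 in R 4.3.3 (lmFit, eBayes, two-sided, no covariate) compared shTP63 with shControl, with Benjamini-Hochberg adjustment over all genes. The steps were tested on simulated data. Members described array by array were the 10 largest falls and all 5 rises past the threshold without overlap between groups, the receptors, channels and small chaperones of import, and the phosphate and ADP/ATP carriers. Others were named by role, after their values were seen. The members and lists were chosen with earlier results of these data known. Alternatives covered the replicate number as a block, 5 other scalings, a filter on dim genes, averaged probe sets, the prior, array weights and each array left out. The other probe sets of a gene were looked at after seeing the data.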

Additional observations from a re-analysis of the deposited data

How the results depend on the processing

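On the deposited scale 5 members rose and 32 fell. Over the 16 alternatives 3 rises (SLC25A27, SLC25A37 and TIMM21) and 25 falls were kept in every alternative that tested the gene, and no member passed in the opposite direction. Rises numbered 3 after quantile normalization over all probe sets, 3 after centring on the median of all probe sets, and 8 after quantile normalization or cyclic loess over probe sets with 1 gene. Falls numbered 49 after centring on the median of all probe sets, under which the all-gene median was -0.12, and 29 after cyclic loess, where the members' median was -0.06 and that of all genes 0.00. Leaving out each array gave 4 to 5 rises and 29 to 31 falls. For the listed transport and import genes, 3 rose and 32 fell. Rises there numbered 5 (quantile, all probe sets), 6 (quantile, 1 gene), 7 (cyclic loess) and 1 (centred, all probe sets). Falls there numbered 21 after cyclic loess and 45 after centring on the median of all probe sets. Leaving out each array gave 2 to 3 rises and 24 to 30 falls. The cause of these shifts was not tested. With the replicate number as a block 4 members rose and 30 fell, and 2 listed genes rose and 29 fell. Deviations of same-numbered arrays correlated at -0.15, -0.04 and 0.12, and not every array correlated best with its own number. With 3 arrays per group, these correlations cannot settle whether equal numbers mark paired samples. Values of dim genes, 8 members among them, are compressed.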

Other observations

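Other nuclear-encoded mitochondrial families on the same arrays also held more falls than rises in shTP63. So did all genes tested, of which 16.4% rose and 25.1% fell. In the brightest level class 25.3% of all genes rose and 44.0% fell. Of 74 mitochondrial ribosomal protein genes, 57 fell and 0 rose in limma's test (61 and 0 at an unadjusted p of 0.05), with a median difference of -0.28. Of 34 genes of respiratory complex I subunits, 23 fell and 1 rose, with a median of -0.22. The carrier and import genes had a median of -0.11, with 32 falls and 5 rises among 70, and all genes tested had a median of -0.01. The families differ in level, and 38 of the 74 ribosomal genes and 19 of the 34 complex I genes lay in the brightest of 5 level classes, against 17 of the 70 carrier and import genes. Relative to the median of all genes in the same level class, the median differences were -0.19, -0.12 and -0.07 for the ribosomal, complex I and carrier and import genes. Whether these families differ from each other was not tested.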
